A study of Nannochloropsis gaditana with 4 samples.

Results

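NR and NAR1 are the nitrate reductase and the nitrite transporter among 44 genes measured by real-time quantitative PCR in *Nannochloropsis gaditana*, a single-celled marine alga (strain CCAP 849/5). They were taken from the table by symbol, with no measured value in the rule, and are 2 of the 44 genes. Nitrate taken up by an alga is reduced to nitrite in the cytosol by nitrate reductase, an enzyme that carries a molybdenum cofactor and draws electrons from NADH or NADPH. Nitrite is then carried into the chloroplast, where nitrite reductase turns it into ammonium for amino acid synthesis. In the green alga *Chlamydomonas reinhardtii*, the family called NAR1 includes membrane proteins that carry nitrite. The nitrate reductase gene there is known for induction by nitrate and repression by ammonium. Of 8 functions of nitrate assimilation looked for by name in the table (both of these, nitrite reductase, nitrate and ammonium transporters, glutamine synthetase, glutamate synthase and glutamate dehydrogenase), 2 had a gene, so NR and NAR1 were the whole pathway measured.

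Cultures of 1 strain were grown in batch for 13 days in gassed flasks, either under continuous light (CL, the control) or under light that flashed at 5, 50 or 500 Hz and had a duty cycle of 0.05. Every condition received a time-averaged light of 300 µmol s-1 m-2, and each flash reached 6000 µmol s-1 m-2. Each of the 4 conditions was 1 sample with 3 numbered repeats, and the series' design text says that RNA was pooled before the measurement. The sources used here do not say at which step the repeats branched off, so their spread may be technical. The deposited columns are numbered: SAMPLE 1 is CL, since it is the divisor of the deposited table of test over control, and SAMPLE 2, SAMPLE 3 and SAMPLE 4 are the flashing-light samples, with no header tying any of them to a frequency. As no condition had a further sample, the conditions could not be tested against each other and there are no p-values.

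Each value is a normalized ratio, a linear quantity relative to the highest of a gene's own 12 non-normalized values and divided by the authors' reference factor, which rests on CYP (cyclophilin, a protein-folding enzyme) and PAP1 (a phosphatidic acid phosphatase). Less NR transcript in every cell and fewer cells that hold it cannot be told apart in such a ratio. The scale is a gene's own, and NR and NAR1 levels cannot be set against each other. The number of cycles behind a value is unknown. Errors of a level are SDs over 3 repeats. A change is a difference of mean log2 values, with the propagated SD, in which the squared SDs of both samples were added and the square root taken. A gene was counted as past the rule of size when its change was at least 2-fold and beyond 2 propagated SDs. Among all 44 genes, SAMPLE 4 repeat 2 had the highest non-normalized value in 25 genes, NR and NAR1 included, and the largest reference divisor, 1.49, where the divisors began at 0.757.

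NR, the enzyme of the first reduction step, was highest under continuous light. Its normalized ratio was 0.466, 0.563 and 0.968 in CL repeats 1, 2 and 3, a mean of 0.666 ± 0.266 (SD, n = 3). In SAMPLE 2 it was 0.183, 0.142 and 0.145, a mean of 0.156 ± 0.0227 (SD, n = 3). All 3 repeats of SAMPLE 2 lay below every repeat of the other samples. SAMPLE 3 gave 0.269, 0.267 and 0.324, a mean of 0.287 ± 0.0325 (SD, n = 3). SAMPLE 4 gave 0.327, 0.673 and 0.377, a mean of 0.459 ± 0.187 (SD, n = 3). Repeat 2 of SAMPLE 4 was inside the CL range and its other repeats were below it, so CL and SAMPLE 4 overlapped. SAMPLE 3 lay wholly below CL, as for 6.82% of the 44 genes. SAMPLE 2 lay wholly below SAMPLE 3, as for 11.4% of them.

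NAR1, the gene named as a nitrite transporter, held nearly the same level in the 4 samples. Its normalized ratio was 0.707, 0.793 and 0.743 in CL, a mean of 0.748 ± 0.0434 (SD, n = 3). The repeats of SAMPLE 2 were 0.722, 0.810 and 0.795, a mean of 0.776 ± 0.0467 (SD, n = 3). The ranges of both samples overlapped. SAMPLE 3 stood at 0.741, 0.649 and 0.819, a mean of 0.736 ± 0.0852 (SD, n = 3), and SAMPLE 4 at 0.663, 0.673 and 0.772, a mean of 0.703 ± 0.0602 (SD, n = 3). The highest of the 12 NAR1 values was 1.26 times the lowest, and both were in SAMPLE 3. For NR the highest was 6.83 times the lowest, with the highest in CL and the lowest in SAMPLE 2.

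**Figure D1:**
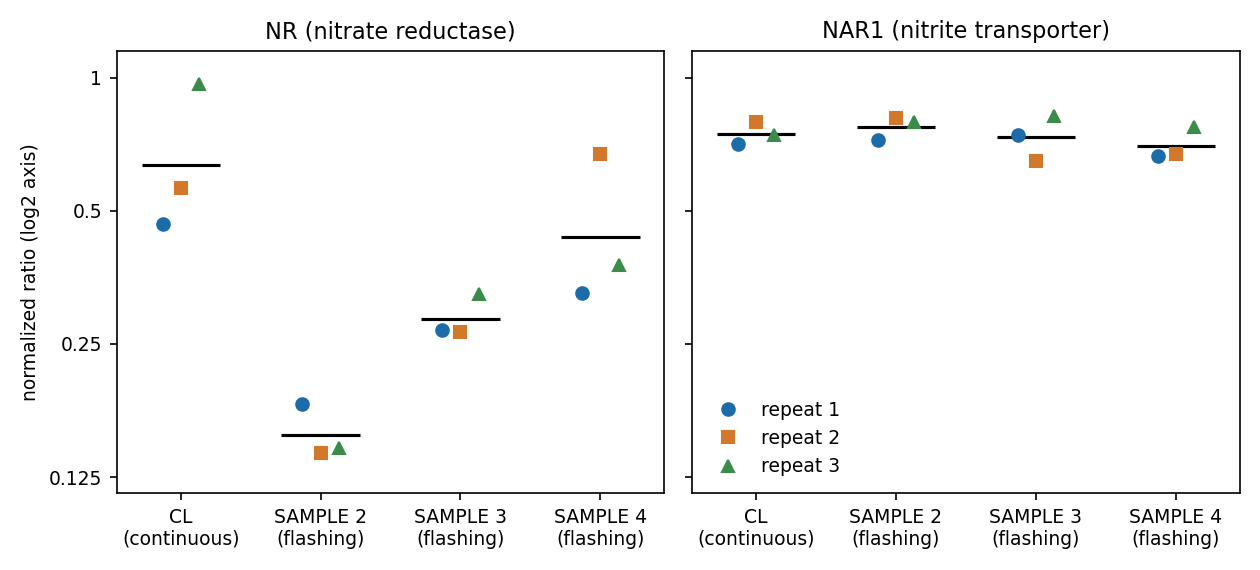
Normalized ratio of NR (left) and NAR1 (right), on a log2 axis, in CL and the 3 flashing-light samples; points are the 3 numbered repeats and black lines their geometric means. NR ran from 0.142 in SAMPLE 2 to 0.968 in CL, while the 12 NAR1 values stayed between 0.649 and 0.819.

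Put in order, NR went from CL through SAMPLE 4 and SAMPLE 3 down to SAMPLE 2. The neighbours CL and SAMPLE 4 did not differ beyond 2 propagated SDs, with a log2 difference of −0.54 ± 0.78. SAMPLE 4 and SAMPLE 3 differed by just over 1 propagated SD, at −0.61 ± 0.58. Their repeats did not overlap: the lowest SAMPLE 4 repeat was 1.01 times the highest SAMPLE 3 repeat. In 25% of the 44 genes the repeats of SAMPLE 4 lay wholly above those of SAMPLE 3. SAMPLE 3 and SAMPLE 2 differed by −0.88 ± 0.26, beyond 2 propagated SDs. For NAR1 the order was SAMPLE 2, CL, SAMPLE 3 and SAMPLE 4, with neighbour differences of −0.05 ± 0.12, −0.03 ± 0.19 and −0.06 ± 0.21, none of them beyond 1 propagated SD.

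In SAMPLE 2 against CL, NR had the largest change of all 44 genes and NAR1 was near the control. NR stood at 0.245-fold, or −2.03 ± 0.58 in log2, and was the only gene past the rule of size in the lower direction, where 2.27% of the 44 genes passed. In either direction 11.4% passed. The 3 repeats taken by number gave 0.392-fold, 0.251-fold and 0.150-fold, and the closest repeats of both samples were 2.55-fold apart. NR shared this lack of overlap with 7 other genes, since 18.2% of the 44 genes lay wholly below CL in SAMPLE 2 and 54.5% lay wholly below or above. NAR1 was at 1.04-fold, a log2 change of 0.05 ± 0.12, and its repeats overlapped with those of CL. Its change was the seventh smallest of the 44 in size. The median change over all genes was 0.11.

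In SAMPLE 3 against CL, NR was lower by a margin that only just met the rule. The log2 change was −1.15 ± 0.57, which is 0.451-fold and 2.02 times its propagated SD. NR was the only gene of 44 past the rule of size, which is 2.27%. The repeats by number stood at 0.577-fold, 0.473-fold and 0.335-fold, and the closest repeats were 1.44-fold apart, in a comparison where the repeats of 6.82% of the genes lay wholly below CL. Beta tubulin, BT, had a larger mean change of −1.31 ± 1.34 with overlapping repeats. NAR1 was at 0.982-fold, −0.03 ± 0.19, with 2 repeats above and 1 below CL.

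SAMPLE 4 against CL gave no call for either gene. NR was at 0.688-fold, −0.54 ± 0.78 in log2, with the repeats by number at 0.701-fold, 1.20-fold and 0.389-fold, so that 1 repeat was above the control. The mean was nevertheless the lowest of the 44 genes in this comparison, in which 0% of the genes passed the rule of size. NAR1 was at 0.939-fold, −0.09 ± 0.15, with 2 repeats below and 1 above CL. All comparisons with CL share its 3 repeats.

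Among the flashing-light samples, NR was higher in SAMPLE 4 than in SAMPLE 2 by 2.80-fold, a log2 change of 1.49 ± 0.59. It was 1 of 2 genes past the rule in the higher direction, 4.55% of the 44, the other being BT at 1.88 ± 0.74. In either direction 18.2% passed, and 20.5% of the genes had repeats wholly above those of SAMPLE 2, NR among them. SAMPLE 3 was 1.84-fold above SAMPLE 2 in NR, at 0.88 ± 0.26, which was beyond 2 propagated SDs and short of 2-fold. It was the highest mean change of the 44 genes, and the NR repeats did not overlap, as for 11.4% of the genes in the higher direction. In that comparison 9.09% of the genes passed the rule, all of them in the lower direction. Between SAMPLE 4 and SAMPLE 3, where 0% passed, NR was at 0.61 ± 0.58, with its repeats apart as for 25% of the genes in the higher direction. NAR1 stood at −0.14 ± 0.15 in SAMPLE 4 against SAMPLE 2, −0.08 ± 0.19 in SAMPLE 3 against SAMPLE 2 and −0.06 ± 0.21 in SAMPLE 4 against SAMPLE 3.

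The ratio of NR to NAR1 does not depend on the reference genes, since both are divided by the same factor in a repeat. It was formed within each numbered repeat and set to a geometric mean of 1 in CL, where the repeats were 0.777, 0.837 and 1.54. SAMPLE 2 gave 0.298, 0.206 and 0.216. The highest of these was 2.61-fold below the lowest CL repeat. SAMPLE 3 gave 0.428, 0.485 and 0.467, which lay between SAMPLE 2 and CL with no overlap. SAMPLE 4 gave 0.581, 1.18 and 0.575, of which repeat 2 was inside the CL range. The log2 changes of the ratio against CL were −2.08 ± 0.61 in SAMPLE 2, −1.12 ± 0.55 in SAMPLE 3 and −0.45 ± 0.80 in SAMPLE 4, close to those of NR alone. The first 2 were past the rule of size. Between flashing-light samples the ratio differed by 1.63 ± 0.66 in SAMPLE 4 against SAMPLE 2, past the rule, by 0.96 ± 0.30 in SAMPLE 3 against SAMPLE 2 and by 0.67 ± 0.60 in SAMPLE 4 against SAMPLE 3.

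**Figure D2:**
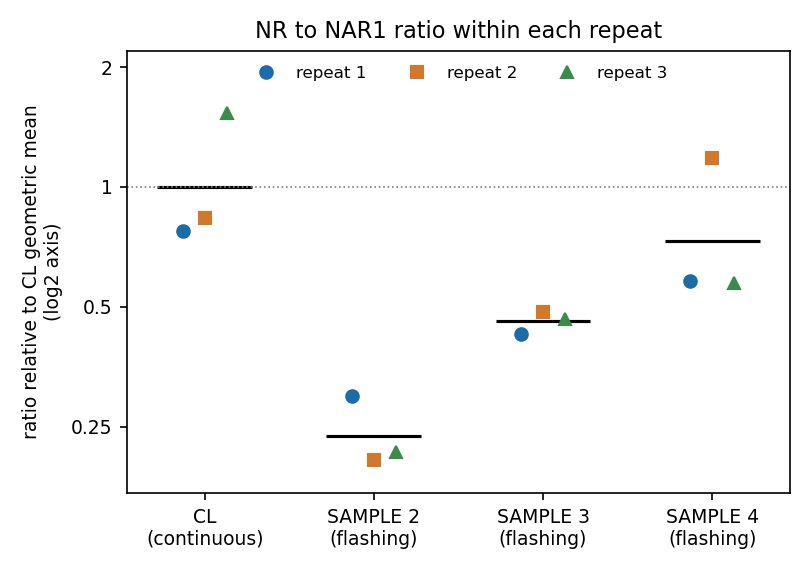
Ratio of NR to NAR1 within each numbered repeat, relative to its geometric mean in CL (dotted line at 1), on a log2 axis; points are repeats and black lines geometric means. SAMPLE 3 stayed between 0.428 and 0.485 and SAMPLE 2 at or below 0.298, while repeat 2 of SAMPLE 4, at 1.18, reached into the CL range.

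The spread of the repeats differed between the 2 genes and between samples. The SD of the NR log2 values was 0.55 in CL and 0.55 in SAMPLE 4, against 0.20 in SAMPLE 2 and 0.16 in SAMPLE 3. Among the 44 genes they were the fourth largest in CL and the second largest in SAMPLE 4. In CL the spread came from repeat 3, which was 0.61 log2 above the NR mean, while NAR1 in that repeat was at −0.01 from its own mean and the median of the 36 target genes, those not used as references, at 0.05. In SAMPLE 4 it came from repeat 2, 0.63 above the NR mean, where NAR1 was at −0.06 and the median target at −0.07. The high NR values of these repeats were thus not shared by NAR1 or the median target. NAR1 had log2 SDs of 0.08 in CL, 0.09 in SAMPLE 2, 0.17 in SAMPLE 3 and 0.12 in SAMPLE 4, and in SAMPLE 3 repeats 2 and 3 its deviations of −0.18 and 0.16 stood beside −0.19 and 0.21 for the median target. Forming the ratio to NAR1 lowered the SD of NR from 0.16 to 0.09 in SAMPLE 3, left it at 0.54 in CL, and raised it from 0.20 to 0.29 in SAMPLE 2 and from 0.55 to 0.59 in SAMPLE 4.

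Set against all genes, NR had the widest range of sample means, 2.03 log2, and the third largest repeat SD pooled over the samples, 0.41. NAR1 had the eighth narrowest range, 0.14, and the sixth smallest pooled SD, 0.12. The medians over the 44 genes were 0.60 for the range and 0.20 for the SD. The narrowest ranges, those of CYP and PAP1, follow from their use in the reference factor. Actin (ACT), a cytoskeletal reference gene, had a range of 0.10, and elongation factor TEF1, of protein synthesis, had 0.31. NAR1, which was not used as a reference, thus had a narrower range than TEF1.

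**Figure D3:**
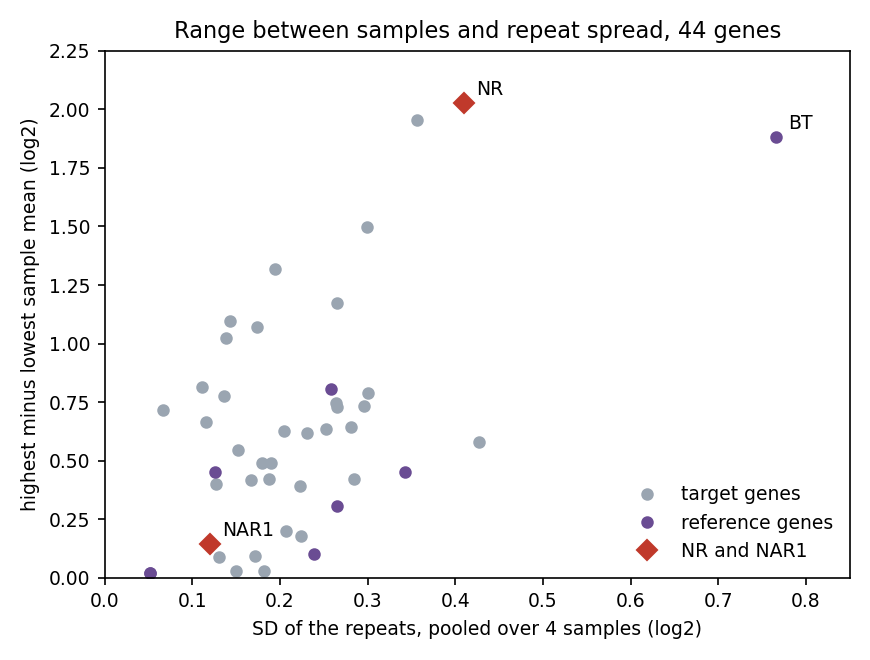
Range of the 4 sample means (y axis, log2) against the SD of the repeats pooled over the samples (x axis, log2) for all 44 genes, with target genes in grey, reference genes in purple, and NR and NAR1 as red diamonds. NR lies at the top with a range of 2.03, NAR1 near the bottom with 0.14, and BT has the largest pooled SD, 0.77.

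The non-normalized values, which lack the reference divisor, can also be read in PCR cycles. For each gene the amplification base was fitted, as the one that brought its values closest to whole steps of 0.01 cycle. The fitted base was 2.02 per cycle for NR and 2.04 for NAR1, where 2 is perfect doubling. At these bases the values were whole steps to within 0.0067 of a step for NR and 0.00066 for NAR1. Relative to its earliest repeat, SAMPLE 4 repeat 2, NR came up 1.20, 0.78 and 0.01 cycles later in CL and 2.57, 2.91 and 3.03 cycles later in SAMPLE 2. On average SAMPLE 2 was 2.17 ± 0.65 cycles later than CL. SAMPLE 3 was later than the earliest repeat by 1.58, 1.87 and 1.65 cycles, and SAMPLE 4 by 1.36 and 1.78 in its other repeats. The whole NR span was 3.03 cycles. NAR1 spanned 0.75 cycles, with CL at 0.60, 0.29 and 0.38 and SAMPLE 2 at 0.61, 0.43 and 0.61 cycles after its own earliest repeat, which was also SAMPLE 4 repeat 2.

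How far these changes rest on the reference was seen by dividing the non-normalized values by each of 8 reference genes alone. NR in SAMPLE 2 against CL was past the rule of size with 7 of them, CYP and PAP1 included. As CYP and PAP1 make up the authors' factor, results with either are not independent of the main change. Over the 7 genes the change ran from −1.59 ± 0.46 with GAPDH, a glycolytic enzyme, to −2.63 ± 0.69 with UFP, a ubiquitin family protein. With BT it stood at −0.42 ± 0.68. In SAMPLE 3 the call held with CYP at −1.13 ± 0.53 and ACT at −1.07 ± 0.43, and did not with PAP1 at −1.17 ± 0.61, UFP at −1.19 ± 0.73, TEF1 at −0.92 ± 0.24, GAPDH at −0.90 ± 0.46, AT1 (alpha tubulin) at −0.70 ± 0.31 or BT at 0.16 ± 1.06. BT itself, a subunit of microtubules, was the least even of the references. Its normalized ratio was 0.428, 0.457 and 0.975 in CL, 0.131, 0.210 and 0.245 in SAMPLE 2, 0.283, 0.0951 and 0.463 in SAMPLE 3, and 0.625, 0.502 and 1.08 in SAMPLE 4. Repeat 3 was the highest in CL for BT as for NR, and 22 of the 36 target genes were above their own CL mean there. In SAMPLE 4 the 2 genes parted: repeat 2 was the highest for NR, at 0.673, and the lowest for BT, at 0.502.

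NAR1 against CL ran from −0.11 to 0.07 log2 over the 3 flashing-light samples with CYP, PAP1 or ACT as the divisor. It reached 0.49 ± 0.28 in SAMPLE 2 with GAPDH, −0.55 ± 0.36 with UFP and 1.66 ± 0.77 with BT, the last past the rule of size. The sign of its small changes therefore depended on the divisor, as the plot of changes by reference shows.

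**Figure D4:**
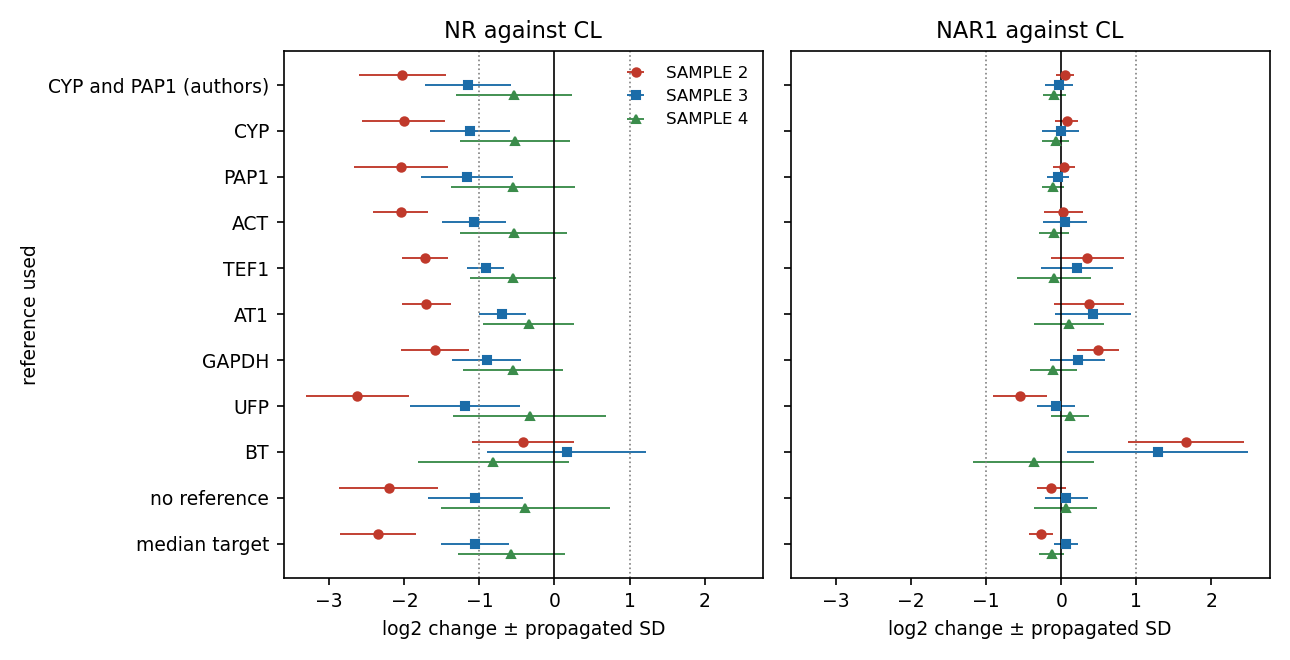
Log2 change of NR (left) and NAR1 (right) against CL, with the propagated SD as bars, in SAMPLE 2 (red circles), SAMPLE 3 (blue squares) and SAMPLE 4 (green triangles) for each reference; dotted lines mark 2-fold. NR in SAMPLE 2 lies beyond 2-fold in each row except BT, at −0.42, and NAR1 lies inside 2-fold except with BT in SAMPLE 2, at 1.66, and in SAMPLE 3, at 1.28.

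Each of the other 43 genes was also taken as the only divisor. NR in SAMPLE 2 against CL was then below 0 with all 43, past the rule of size with 42, and between −3.63 and −1.31 apart from BT, with a median of −2.18. In SAMPLE 3 it was below 0 with 42 of the 43 and past the rule with 13, with a median of −1.09, and its 3 repeats lay wholly below CL with 41. In SAMPLE 4 the median was −0.51 and none passed. For NAR1 the medians were −0.10, 0.04 and −0.06 in SAMPLE 2, SAMPLE 3 and SAMPLE 4, with 23, 20 and 24 of the 43 divisors giving a value below 0. Dividing by a gene subtracts its own log2 change from that of NR or NAR1. The counts below 0 therefore only restate where the NR and NAR1 changes rank among all genes. The counts past the rule of size and of repeats wholly below CL come from the same subtraction. None of these counts is a separate check of how far the changes rest on the reference.

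Leaving out a repeat number ended the call of NR against CL in SAMPLE 3 and not in SAMPLE 2. In SAMPLE 2 the log2 change against CL was −2.36 ± 0.55 without repeat 1, −2.04 ± 0.78 without repeat 2 and −1.67 ± 0.32 without repeat 3, past the rule each time. In SAMPLE 3 it was −1.33 ± 0.59 without repeat 1, still past the rule, −1.19 ± 0.77 without repeat 2 and −0.94 ± 0.19 without repeat 3, both short of it. The ratio to NAR1 in SAMPLE 3 lost the call in the same way, at −1.29 ± 0.70 without repeat 2 and −0.82 ± 0.15 without repeat 3. In SAMPLE 4, NR stood at −0.94 ± 0.76 without repeat 2 and −0.13 ± 0.76 without repeat 3. For SAMPLE 4 against SAMPLE 2, NR was at 1.54 ± 0.78 without repeat 3, short of the rule, and at 1.11 ± 0.27 without repeat 2, past it.

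The genes whose sample means lay closest to those of NR were named by the root mean square difference of centred mean log2 levels over the 4 samples. They were BT at 0.38, DGAT3, a diacylglycerol acyltransferase of the last step of oil synthesis, at 0.48, and AGPase1, an enzyme that makes ADP-glucose, at 0.51, against a median of 0.79 over the other 43 genes and 0.78 for NAR1. BT had a log2 change against CL of −1.61 ± 0.81 in SAMPLE 2, −1.31 ± 1.34 in SAMPLE 3 and 0.28 ± 0.87 in SAMPLE 4. DGAT3 had smaller changes with a tighter spread, −0.72 ± 0.08, −0.40 ± 0.11 and −0.15 ± 0.10 in the same order. AGPase1 was at −0.64 ± 0.16, −0.16 ± 0.16 and 0.18 ± 0.09. None of these was past the rule of size against CL.

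For NAR1 the closest were AGPase2, the second ADP-glucose gene, at a difference of 0.02, DGAT4 at 0.03 and KAR2, a ketoacyl-ACP reductase of fatty acid synthesis, at 0.04, against a median of 0.21 over the other genes. A gene with little change lies near any other such gene by this measure. Against CL in SAMPLE 2 the changes were 0.06 ± 0.33 for AGPase2, −0.01 ± 0.12 for DGAT4 and 0.01 ± 0.30 for KAR2. NAR1 and these genes were at most 0.09 log2 from CL in each of the 3 flashing-light samples.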

How the data were processed

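Transcripts were measured by quantitative PCR with SYBR Green. The authors deposited 3 tables of 132 rows with a linear ratio per gene and repeat: non-normalized (highest of a gene's 12 values equal to 1), normalized to housekeeping genes, and the fold of test over control, per the file headers. Recomputation showed 1 divisor per column and repeat, the scaled geometric mean of CYP and PAP1, for 43 of 44 genes within 0.1%. MCT, whose deposited normalized row departs from it, was recomputed from its non-normalized values. Of 396 deposited folds, 393 equalled the ratio of normalized values within 0.1%. Rows were joined by position because 4 identifiers were spelled differently. The sources used here name no instrument, software or threshold cycles. Means and SDs of levels were computed on linear values, and changes with their propagated SDs on log2 values. Python 3.11.15 with numpy 2.4.6 was used. No depth or detection limit is known. NR and NAR1 are named throughout, with the 3 genes most alike to each by the stated distance and the reference genes used as alternatives. The members, rule and lists were chosen with earlier results of these data known. Alternatives were each reference gene alone, no reference, centring on the median target, base 2, other averages, other fold limits and each repeat left out. Differences within repeat numbers and, against CL, the deposited folds were also used. The sources do not say whether repeat numbers pair the samples, and the main changes were computed without pairing. Correlations of deviations over genes, by repeat number, ran from −0.28 to 0.61, 10 of 18 above 0.1. For repeat 3 all were positive, from 0.08 to 0.61, while repeats 1 and 2 had values of both signs. Pairing by number was thus not settled.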

Additional observations from a re-analysis of the deposited data

How the results depend on the processing

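Of 315 recomputed values, 259 stayed within their spread (counts: within 1.5 times) and 56 moved further. Single-gene divisors and MCT as deposited were chosen after seeing the data. Of changes past the rule of size, 2 turned sign, both with BT alone: NR in SAMPLE 3 against CL at 0.16 and in SAMPLE 4 against SAMPLE 2 at −0.39. Of changes that were not past it, 29 of 188 values turned sign: 27 of NAR1, NR in SAMPLE 4 against SAMPLE 3 with BT, and the ratio in SAMPLE 4 against CL without repeat 3, at 0.037. The causes were not tested. NR passed the rule of size in 17 of 18 alternatives in SAMPLE 2 against CL, 8 of 18 in SAMPLE 3 against CL, 13 of 17 in SAMPLE 4 against SAMPLE 2 and 5 of 17 in SAMPLE 3 against SAMPLE 2. The ratio to NAR1 passed in 8 of 8, 5 of 8, 7 of 7 and 2 of 7. Its alternatives hold no change of reference, which cancels in the ratio, so its counts cannot be set against those of NR. Against CL, the deposited folds and the differences within repeat numbers were the same values, so these counts hold that result under both names. The median and the arithmetic mean of the repeats kept the main propagated SD. Differences within repeat numbers, as a replicate block, left each mean as it was, at −2.03 ± 0.69, −1.15 ± 0.40 and −0.54 ± 0.81 for NR in SAMPLE 2, SAMPLE 3 and SAMPLE 4 against CL, and changed no call of NR, NAR1 or their ratio. The depth is unknown, so no detection limit can be given. Values that moved further follow, as log2 changes.

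For NR they were −0.42 (BT) and −2.63 (UFP) in SAMPLE 2 against CL, 0.58 (BT), 1.44 (UFP), 1.16 (no reference) and 1.29 (centred on the median target) in SAMPLE 3 against SAMPLE 2, 2.29 (UFP) in SAMPLE 4 against SAMPLE 2, and −0.98 (BT) in SAMPLE 4 against SAMPLE 3. For NAR1 in SAMPLE 2 against CL they were 0.35 (TEF1), 0.37 (AT1), 1.66 (BT), −0.55 (UFP), 0.49 (GAPDH), −0.13 (no reference), −0.27 (centred) and −0.10 (median over single-gene divisors). In SAMPLE 3 against CL NAR1 was at 0.21 (TEF1), 0.42 (AT1), 1.28 (BT) and 0.22 (GAPDH), and in SAMPLE 4 against CL at 0.10 (AT1), −0.37 (BT), 0.12 (UFP) and 0.058 (no reference). NAR1 in SAMPLE 3 against SAMPLE 2 was at −0.37 (BT), 0.48 (UFP), −0.27 (GAPDH), 0.20 (no reference), 0.34 (centred) and 0.15 (median over single-gene divisors). In SAMPLE 4 against SAMPLE 2 it was at −0.45 (TEF1), −2.03 (BT), 0.66 (UFP), −0.60 (GAPDH), 0.19 (no reference) and 0.14 (centred), and in SAMPLE 4 against SAMPLE 3 at −0.31 (TEF1), −0.32 (AT1), −1.65 (BT), 0.18 (UFP) and −0.32 (GAPDH).

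The number of genes past the rule was 10 at 1.5-fold and 2 at 3-fold in SAMPLE 2 against CL (5 at 2-fold). In SAMPLE 3 against CL (1 at 2-fold) it was 0 at 3-fold and with no reference, and 0 to 1 with a repeat left out, 0 without repeat 2 or 3. It was 11 at 1.5-fold, 1 at 3-fold and 2 with no reference in SAMPLE 3 against SAMPLE 2 (4 at 2-fold), 16, 2 and 4 in SAMPLE 4 against SAMPLE 2 (8 at 2-fold), and 1 at 1.5-fold in SAMPLE 4 against SAMPLE 3 (0 at 2-fold).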
